A study of Homo sapiens with 4 samples.

Results

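The genes described here are 38 transcripts of the ATF4 branch of the integrated stress response, out of 40188 genes with a value in the series. They are a list of genes chosen with earlier results of these data known. They were matched by symbol to the Ensembl identifiers of the files, and all 38 were found. By role, 12 act in amino acid synthesis and one-carbon metabolism, 7 carry amino acids across membranes and 19 act in stress signalling. The other gene lists below were chosen in the same way, so shares set beside those of all genes are descriptive only.

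The series holds 4 polyA-selected, stranded RNA-seq libraries of HEK293, a human embryonic kidney cell line, with 1 library per group. Each group is a stable line with a doxycycline-inducible construct: an empty vector as control, MSI1 (Musashi-1, an RNA-binding protein), SRRM3 or SRRM4 (related serine/arginine-rich proteins that promote the inclusion of neural microexons). Cells of all 4 groups, the empty-vector control included, received doxycycline at 1 µg/mL for 24 h. The labels do not say whether a line is 1 clone or a pool of integrants, so a difference between lines and an effect of the induced protein cannot be told apart. The series concerns retinal microexons; gene-level values show transcript abundance only.

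Stress that impairs translation initiation, such as a lack of amino acids or unfolded protein in the endoplasmic reticulum, acts through kinases that phosphorylate the initiation factor eIF2. General protein synthesis then falls, while the mRNA of the transcription factor ATF4 is translated better because of short reading frames upstream of its coding sequence. ATF4 pairs with C/EBP proteins and activates genes for amino acid synthesis and import, for redox balance, and for feedback that restores translation. The same genes also serve dividing cells in culture that have met no added stress.

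Total counts lay between 60288244 and 63003121 per library. Each induced gene was highest in its own library. MSI1 was at 62.43 cRPKM against 8.38 in the empty vector, SRRM3 at 38.53 against 0.49 and SRRM4 at 63.78 against 0.39. The deposited unit, cRPKM, is a corrected RPKM, which divides reads by library size and by a length set for each gene. That length need not be the full transcript length, so levels of different genes compare only roughly. Among markers of HEK293, vimentin (VIM) lay between 909.49 and 1211.14 cRPKM, NEFM between 11.32 and 19.44 and PAX2 was at least 0.73 in each library. Summed levels of 5 fibroblast markers ranged from 3.42 to 4.6 cRPKM, mostly from COL1A1, and those of 5 blood cell markers from 4.87 to 7.25, mostly from CD68. COL1A2, DCN, PTPRC, CD3E and HBB had at most 2 reads in any library, LUM had 32 to 73, PDGFRB 6 to 16 and LYZ 12 to 16. COL1A1 and CD68 were both highest in MSI1, at 4.29 and 7.06 cRPKM, and their part in the results below was not tested.

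With 1 library per group there is no replicate error and no test between conditions. Folds are ratios of depth-scaled read counts, and the range in brackets after a ratio is an exact 95% interval that covers counting error only; it compares 2 libraries, not conditions. A gene was called lower at a ratio of at most 0.8, or higher at a ratio of at least the reciprocal of 0.8, where that interval excluded 1. Calls were counted over 12706 genes with a mean of at least 1 cRPKM over the 4 libraries. Of the 38 members 33 passed this filter, and each of the 33 would also pass on the mean of any 3 libraries. ALDH1L2, CBS, JDP2, NUPR1 and FGF21 did not pass. The 3 comparisons with the empty vector share that one library, so its own deviations enter all of them. A bulk library cannot tell more RNA per cell from more cells that express a gene.

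The members differed widely in baseline level. In the empty vector ATF4 (ENSG00000128272, GRCh38 chromosome 22, 39519695 to 39522685) was the most abundant member at 238.51 cRPKM, rank 233 of the 12706 genes. It was followed by PHGDH at 125.54, SLC1A5 at 113.09 and SHMT2 at 105.14 cRPKM. Among the 33 members that passed the filter the lowest were SLC7A11 at 1.22, CHAC1 at 2.91, CEBPB at 3.27 and GDF15 at 3.41 cRPKM, and the other 5 were between 0.14 and 0.50 cRPKM.

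The first comparison sets the induction of MSI1 against the control line. Many members were higher in MSI1, led by CHAC1, SLC7A11, ATF3, ATF4 and PPP1R15A with ratios from 1.52 to 2.08, while the secreted cytokine GDF15 was lower at a ratio of 0.226. Of the 33 members tested, 13 were called higher and 2 lower. Over all genes tested 8.0% were called higher and 4.98% lower. The median log2 ratio of the members, with a pseudocount of 0.5 cRPKM, was 0.19 against 0.016 for all genes tested. In total 24 of the 33 members had their highest level of the 4 libraries in MSI1 (72.7%), against 33.8% of all genes tested. Among these 24 the highest library exceeded the lowest by at most 2.34-fold, for SLC7A11. By role, 6 of 10 synthesis members, 5 of 7 transporters and 13 of 16 stress signalling members were highest in MSI1. With a 1.5-fold rule 5 members were called higher and 1 lower, where 2.24% and 1.24% of all genes were called, and with a 2-fold rule 1 and 1, where 0.417% and 0.315% were. Among genes with a mean of at least 5 cRPKM 11 members were called higher and 1 lower, where 4.77% and 3.73% of genes were, and without a filter 15 and 2, where 4.43% and 2.45% were.

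**Figure D1:**
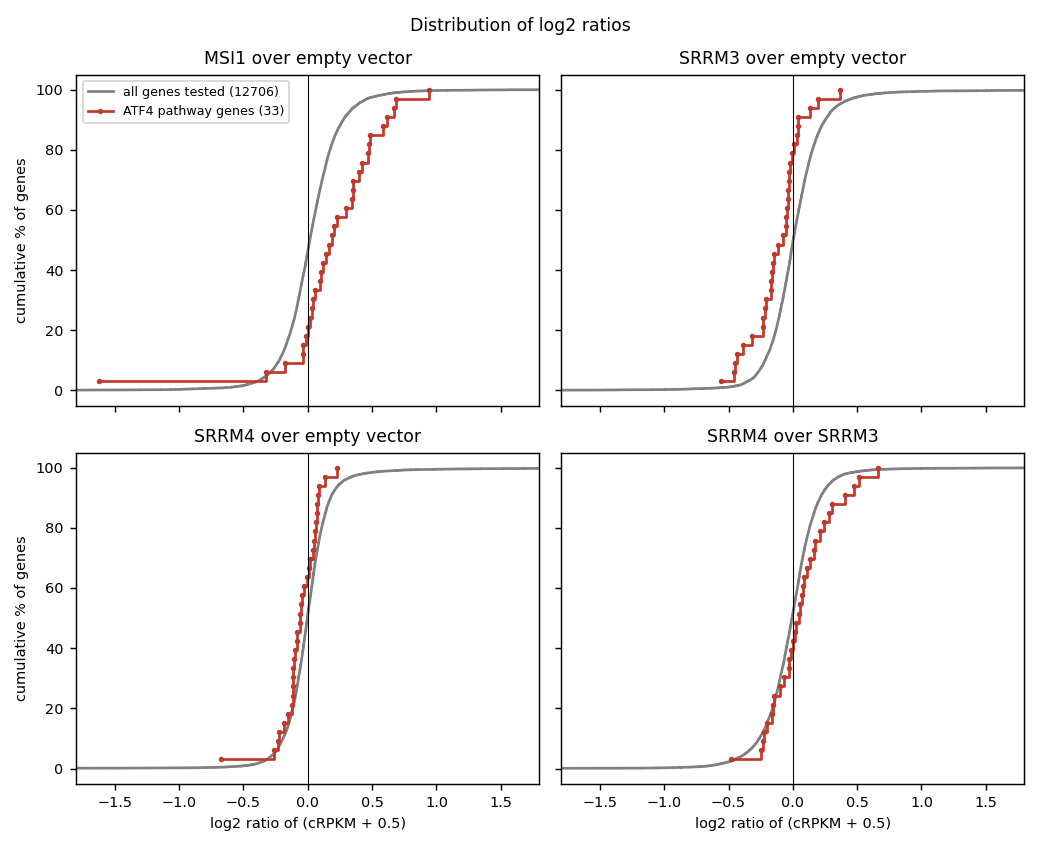
Cumulative percentage of genes (y axis) by log2 ratio of cRPKM plus a pseudocount of 0.5 (x axis) for the 33 ATF4 pathway genes that passed the filter (red) and all 12706 genes tested (grey) in 4 comparisons of 1 library each. In MSI1 over the empty vector the red curve lies to the right of the grey one except near its lowest members, GDF15 and PYCR1; in SRRM3 over the empty vector it lies to the left.

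The transcription factors come first in the pathway. ATF4 itself was at 238.51 cRPKM in the control, 366.28 in MSI1, 234.21 in SRRM3 and 248.64 in SRRM4; values of other genes follow in this order. MSI1 stood above the other 3 libraries, which lay close together, and its ratio to the empty vector was 1.54 (1.51 to 1.56). ATF3 (chromosome 1, 212565334 to 212620777), a stress-induced factor of the same family, was at 34.24, 54.64, 24.79 and 34.69 cRPKM. It was highest in MSI1, with a ratio of 1.60 (1.54 to 1.66), and lowest in SRRM3. DDIT3 (chromosome 12, 57516588 to 57521737), which encodes the pro-apoptotic factor CHOP, was at 17.27, 24.11, 15.49 and 16.26 cRPKM, again with MSI1 above the rest and a ratio of 1.40 (1.28 to 1.52). DDIT3 exons overlap the opposite-strand genes MARS1, listed at 0 reads in all 4 libraries, and MBD6, and the sources used here do not say whether reads were counted by strand, so its value is uncertain to that extent.

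CEBPG, a C/EBP partner of ATF4, was at 43.37, 60.94, 41.72 and 40.86 cRPKM, with a ratio of 1.41 (1.37 to 1.44) in MSI1. CEBPB, another partner, was called in none of the comparisons with the empty vector and lay between 2.97 and 3.52 cRPKM. JDP2, a repressor of the AP-1 family below the filter, was at 0.50, 0.92, 0.60 and 0.62 cRPKM. Its ratio in MSI1 was 1.84 (1.51 to 2.24). NUPR1, a small stress-induced chromatin protein also below the filter, was at 0.33, 0.30, 0.26 and 0.18 cRPKM, and of its ratios to the empty vector only that of SRRM4, 0.547 (0.382 to 0.776), met the rule.

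Feedback and effector genes divided in the same comparison. PPP1R15A (GADD34), the phosphatase subunit that reverses eIF2 phosphorylation, was at 14.60, 22.15, 12.36 and 15.40 cRPKM, with a ratio of 1.52 (1.44 to 1.60) in MSI1. CHAC1 (chromosome 15, 40952962 to 40956519), an enzyme that degrades glutathione, was at 2.91, 6.04, 2.83 and 2.84 cRPKM. It was the member with the highest ratio in MSI1, 2.08 (1.82 to 2.38), and ranked 47 of 12706 genes by log2 ratio; its other 3 libraries agreed within counting error. The pseudokinase TRIB3, an inhibitor of ATF4 signalling, was not called in any comparison and lay between 17.53 and 20.69 cRPKM. SESN2, which restrains mTORC1, lay between 17.14 and 18.79 cRPKM, and EIF4EBP1, which encodes the translation repressor 4E-BP1, between 38.48 and 45.72. XPOT, the tRNA export factor, was between 48.09 and 56.06 cRPKM. None of these 4 was called.

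DDIT4 (REDD1), an mTORC1 inhibitor also induced by hypoxia and glucocorticoids, followed another order. It was at 27.24, 27.22, 35.19 and 25.05 cRPKM, so that SRRM3 was high and MSI1 equalled the empty vector. Its ratio in SRRM3 was 1.29 (1.23 to 1.36), and it was the only member called higher there among the 33. SRRM4 against SRRM3 gave a ratio of 0.712 (0.677 to 0.749). An antisense gene, DDIT4-AS1, overlaps 41.2% of DDIT4's exonic bases and had at most 2 reads in any library.

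Against the empty vector, the secreted and surface members other than GDF15 were called higher in MSI1 or not called. VEGFA, the vascular growth factor, was at 8.07, 10.97, 7.74 and 8.56 cRPKM, with a ratio of 1.36 (1.28 to 1.45) in MSI1. STC2, a secreted glycoprotein, was at 7.45, 9.62, 6.38 and 6.63 cRPKM, with a ratio of 1.29 (1.23 to 1.36). VLDLR, a lipoprotein receptor, lay between 3.22 and 4.31 cRPKM and was called only in MSI1 over SRRM4, at 1.34 (1.26 to 1.42). FGF21, a metabolic hormone below the filter, had 11, 3, 4 and 9 reads, too few to order the libraries.

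GDF15 (ENSG00000130513, chromosome 19, 18374731 to 18389176), a cytokine released by stressed cells and a known target of both ATF4 and CHOP and of p53, was lower than the control in all 3 induced lines. It was at 3.41, 0.77, 2.36 and 1.95 cRPKM, from 244, 56, 171 and 135 reads. The empty vector was highest and MSI1 lowest, with a ratio of 0.226 (0.166 to 0.303). In that comparison 26 of the 33 members had a ratio above 1, as did 53.7% of all genes tested, and PYCR1 was the other member called lower. By log2 ratio GDF15 was number 20 from the bottom of 12706 genes. GDF15 was also below the empty vector in SRRM3, at 0.692 (0.566 to 0.845), and in SRRM4, at 0.570 (0.458 to 0.706). Without the empty vector MSI1 was still lower, at 0.327 (0.237 to 0.445) of SRRM3 and 0.397 (0.285 to 0.546) of SRRM4. The intervals of SRRM3 and SRRM4 overlapped, and their ratio was 0.824 (0.652 to 1.04).

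**Figure D2:**
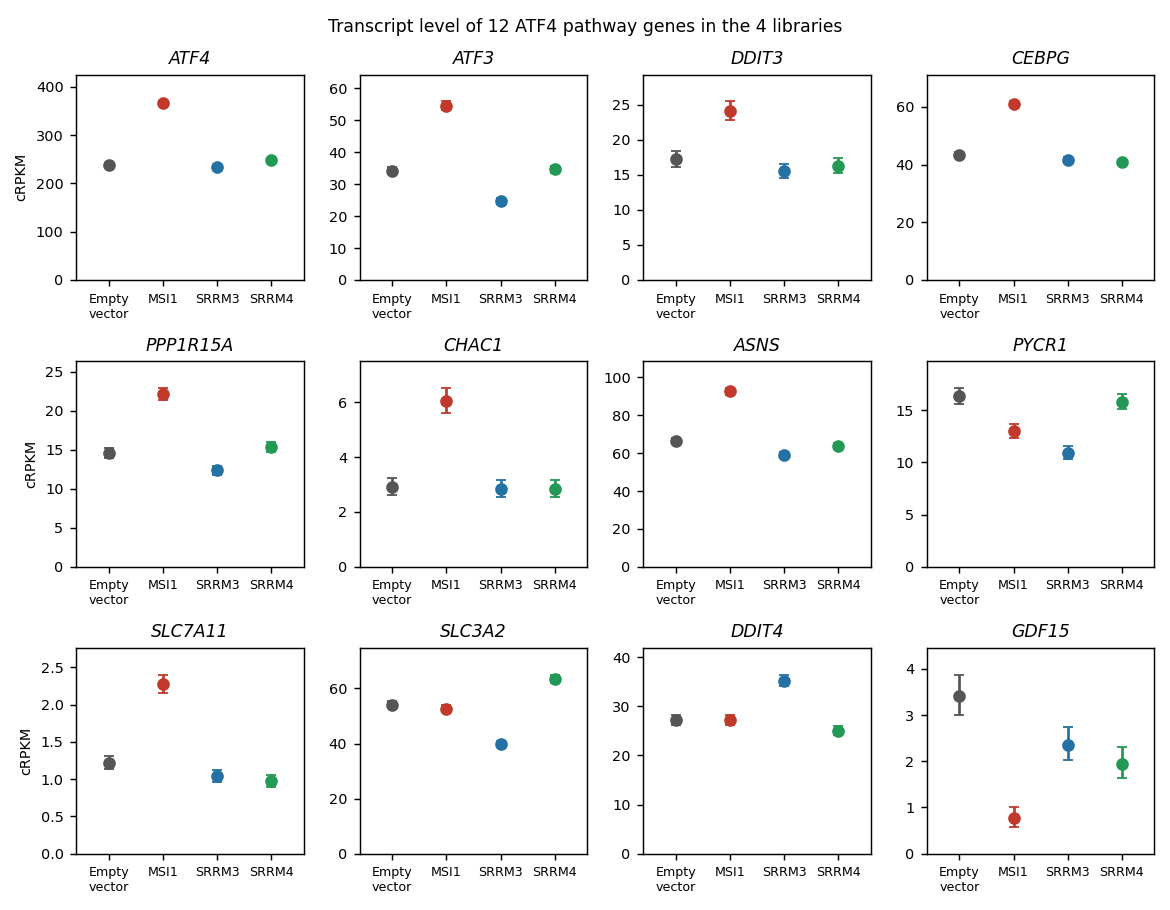
Level in cRPKM (y axis, from 0, own scale per panel) of 12 ATF4 pathway genes in the 4 libraries (x axis); points are single libraries and bars are exact 95% Poisson counting intervals. MSI1 is highest for ATF4, ATF3, DDIT3, CEBPG, PPP1R15A, CHAC1, ASNS and SLC7A11 and lowest for GDF15, while SRRM3 is lowest for PYCR1 and SLC3A2 and highest for DDIT4.

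Among the 12 amino acid synthesis members 10 passed the filter, and 3 of them were called higher and 1 lower in MSI1, where 8.0% and 4.98% of all genes were. ASNS (ENSG00000070669, chromosome 7, 97852118 to 97872542), the enzyme that makes asparagine, shares 44.6% of its exonic bases with AC079781.5, a same-strand transcript not analysed here. It was at 66.55, 92.58, 59.06 and 63.71 cRPKM. MSI1 stood above the other 3 libraries, at 1.39 (1.35 to 1.43) of the empty vector. PCK2, the mitochondrial PEPCK, was at 7.09, 9.51, 7.84 and 6.51 cRPKM, with a ratio of 1.34 (1.22 to 1.47). PSPH, the last enzyme of serine synthesis, was at 19.01, 24.41, 19.51 and 17.47 cRPKM, with a ratio of 1.28 (1.21 to 1.36).

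The serine and one-carbon pathway was not uniform. PHGDH, its first enzyme, was lowest in the empty vector at 125.54 cRPKM and highest in SRRM3 at 143.67, and PSAT1, the second enzyme, was lowest in SRRM3 at 55.46 against 72.82 in the control, or 0.762 (0.739 to 0.785) of it. SHMT2, the mitochondrial serine hydroxymethyltransferase, hardly varied, between 104.23 and 109.46 cRPKM. MTHFD2, the next mitochondrial folate enzyme, was at 44.29, 54.57, 37.65 and 42.44 cRPKM, and its MSI1 ratio of 1.23 (1.20 to 1.26) fell short of the rule. ALDH1L2, the folate enzyme below the filter, was at 0.47, 0.65, 0.63 and 0.31 cRPKM. MSI1 and SRRM3 were thus above the empty vector and SRRM4 below it, at 0.656 (0.526 to 0.817). ALDH1L2 had 215, 300, 293 and 137 reads. Its exons share 145 bases (1.7%) with the opposite-strand gene C12orf45, which had 2030, 2100, 1807 and 1925 reads. Whether reads were counted by strand is not known here, so its value is uncertain to that extent.

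PYCR1 (chromosome 17, 81932384 to 81942412), which completes proline synthesis, was lower in 2 of the induced libraries. It was at 16.34, 12.98, 10.92 and 15.81 cRPKM. SRRM3 was lowest at 0.668 (0.622 to 0.719) of the empty vector, MSI1 was at 0.794 (0.741 to 0.851), and SRRM4 was close to the empty vector. CTH, the enzyme that makes cysteine, lay between 3.96 and 4.73 cRPKM and the alanine aminotransferase GPT2 between 12.32 and 14.29; neither was called. CBS had 3, 5, 5 and 1 reads; its near-identical copy CBSL had 64, 70, 73 and 76, so how reads fell to each copy is uncertain and no ratio is given.

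Of the 7 amino acid transporters 2 were called higher in MSI1 and none lower, where 8.0% and 4.98% of all genes were. SLC7A11 (chromosome 4, 138164097 to 138242349), the cystine importer xCT, was at 1.22, 2.27, 1.04 and 0.97 cRPKM. MSI1 was high and SRRM4 lowest, with ratios to the empty vector of 1.85 (1.69 to 2.03) and 0.793 (0.708 to 0.889). SLC1A4, a transporter of serine and other neutral amino acids, was at 11.79, 15.11, 11.84 and 11.72 cRPKM, with a ratio of 1.28 (1.22 to 1.34) in MSI1 and 3 nearly equal libraries otherwise.

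The heavy and light chains of the leucine importer LAT1 shared another order. SLC3A2 (chromosome 11, 62856102 to 62888875), the heavy chain, was at 54.15, 52.61, 39.87 and 63.46 cRPKM. SLC7A5, the light chain, was at 23.48, 23.98, 18.77 and 24.96 cRPKM. Both were lowest in SRRM3 and highest in SRRM4, with MSI1 near the empty vector. SRRM3 over the empty vector was 0.736 (0.710 to 0.763) for SLC3A2 and 0.799 (0.771 to 0.829) for SLC7A5, the latter just inside the rule. SLC7A1, a cationic amino acid transporter, SLC1A5, a glutamine transporter, and SLC38A2, a system A transporter, had ratios between 0.887 and 1.18 in the 3 comparisons with the empty vector and were not called there. SLC7A1 was called only in MSI1 over SRRM3, at 1.33 (1.29 to 1.365).

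**Figure D3:**
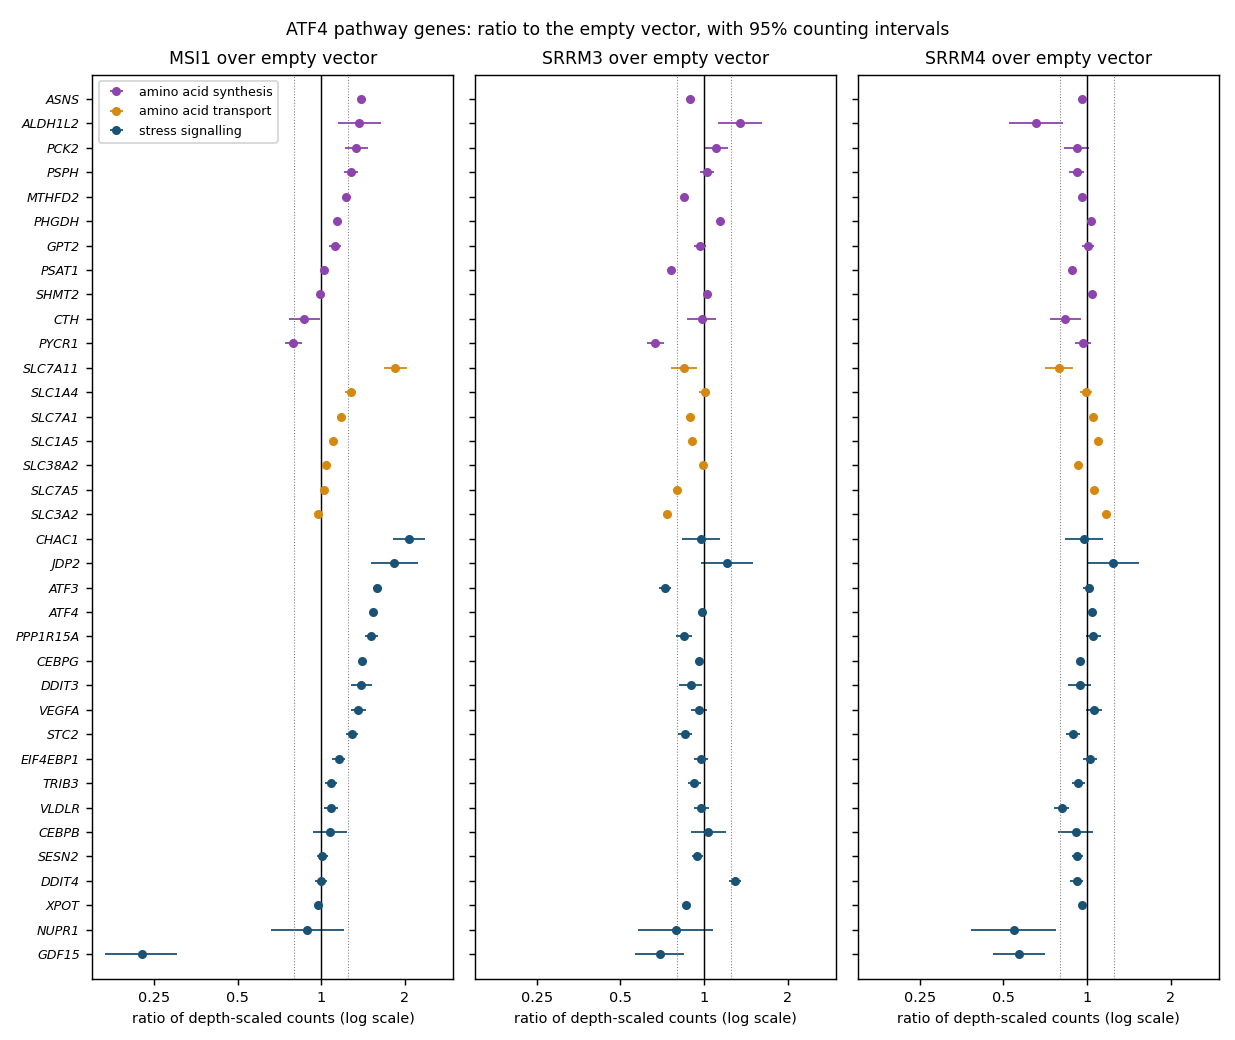
Ratio of depth-scaled counts to the empty vector (x axis, log scale) for 36 ATF4 pathway genes (y axis, ordered by role and by MSI1 ratio); points are single pairs of libraries, bars are exact 95% counting intervals, and dotted lines mark 0.8 and its reciprocal. CBS and FGF21 have too few reads to be drawn. CHAC1 is farthest to the right and GDF15 farthest to the left in MSI1.

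Because ATF4 binds C/EBP-ATF composite elements, the RefSeq promoter windows of the members (GRCh38.p14, 250 bases before to 50 after each listed start) were searched for TGATGNAA on both strands, the other strand reading TTNCATCA. The table held 29 of the 38 members with 46 windows, and some genes have several starts. A match was present in at least one window of 10 members (34.5%), against 4.46% of all 27305 genes in the table; by window the shares were 21.7% and 3.62% of windows of the same length. In 7 of the 29 members the match lay wholly before the start, against 3.89% of all genes in the table. These 7 are shown with up to 11 flanking bases, 5′ to 3′ on the gene's strand, the match in capitals.
SLC1A5: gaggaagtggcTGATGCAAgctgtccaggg
ASNS: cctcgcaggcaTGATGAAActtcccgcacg
CEBPG: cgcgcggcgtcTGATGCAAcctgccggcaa
ATF3: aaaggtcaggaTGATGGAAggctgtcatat
CHAC1: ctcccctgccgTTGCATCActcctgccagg
JDP2: atagccggggcTGATGCAAcccgtccc
FGF21: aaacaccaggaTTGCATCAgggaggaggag

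The stretches lie at chr19:46784893-46784922 (minus strand, SLC1A5), chr7:97872458-97872487 (minus, ASNS), chr19:33374060-33374089 (plus, CEBPG), chr1:212565205-212565234 (plus, ATF3), chr15:40953251-40953280 (plus, CHAC1), chr14:75427995-75428021 (plus, JDP2) and chr19:48755459-48755488 (plus, FGF21). In GENCODE 29 those of SLC1A5, ASNS and CHAC1 are in an annotated exon of the gene, those of CEBPG and JDP2 are in an intron of the gene, and those of ATF3 and FGF21 are outside genes. The first base of the match was 97, 68, 42, 191, 209, 16 and 54 bases before the start, in the same order. SLC1A4, SLC3A2 and SLC7A1 had a match at or after the start. The 8 tested members with a match had MSI1 ratios from 0.972 to 2.08 with a median of 1.34, and the 18 tested members in the table without one had ratios from 0.226 to 1.54 with a median of 1.08. ATF4 and GDF15 were among those without a match in these windows. Ratios of other genes with and without a match were not compared, and the members were chosen with earlier results known. The list was drawn up as ATF4 pathway genes, so its share of matches beside that of all genes is no test of a link to ATF4. A match is a description of letters and not of binding.

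The second comparison sets the SRRM3 line beside the control. Here 1 of 33 members was called higher (DDIT4) and 6 lower, namely PYCR1, GDF15, ATF3, SLC3A2, PSAT1 and SLC7A5 with ratios from 0.668 to 0.799. Over all genes tested 6.86% were called higher and 3.86% lower. The median log2 ratio of the members was -0.080, against 0.0029 for all genes tested. A ratio below 1 was found for 26 of the 33, and for 6273 of all 12706 genes tested. ATF3 was at 0.724 (0.691 to 0.759), while ATF4 was at 0.982 (0.966 to 0.999), CHAC1 at 0.972 (0.830 to 1.14) and DDIT3 at 0.897 (0.816 to 0.986). SRRM3 was the lowest of the 4 libraries for 19 of the 33 members (57.6%), against 26.8% of all genes tested. With a 1.5-fold or a 2-fold rule no member was called, where 2.17% and 0.653% of all genes were called higher and 0.669% and 0.189% lower. Among genes with a mean of at least 5 cRPKM 1 member was called higher and 5 lower, where 3.20% and 3.15% of genes were, and without a filter 2 and 6, where 3.74% and 2.0% were; the added call was ALDH1L2.

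The SRRM4 line held few calls beside the control. None of the 33 members was called higher, and 2, GDF15 and SLC7A11, were called lower. Over all genes tested 2.96% were called higher and 3.07% lower, so the share of members called higher or lower, 0 of 33 and 2 of 33, is read against that. The member with the highest ratio was SLC3A2 at 1.17 (1.14 to 1.21), below the rule. ATF4 was at 1.04 (1.02 to 1.06), ATF3 at 1.01 (0.970 to 1.06) and CHAC1 at 0.976 (0.832 to 1.14). The median log2 ratio was -0.061, against -0.0035 for all genes tested. With a 1.5-fold rule 1 member, GDF15, was called lower and none higher, where 0.464% and 1.08% of all genes were, and with a 2-fold rule none either way, where 0.0708% and 0.496% were. Among genes with a mean of at least 5 cRPKM no member was called, where 1.38% were called higher and 1.87% lower; without a filter 4 were called lower, ALDH1L2 and NUPR1 added, where 1.75% were, and none higher, where 1.87% were.

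SRRM4 against SRRM3 compares the related proteins without the empty vector. SLC3A2, PYCR1, ATF3 and SLC7A5 were called higher in SRRM4, with ratios of 1.59 (1.54 to 1.65), 1.45 (1.34 to 1.56), 1.40 (1.33 to 1.47) and 1.33 (1.28 to 1.38). DDIT4 was the 1 member called lower. Over all genes tested 3.85% were called higher and 7.47% lower. ATF4 was at 1.06 (1.04 to 1.08) and CHAC1 at 1.00 (0.856 to 1.18). PPP1R15A, at 1.246 (1.17 to 1.33), lay just below the rule and met it with TMM scaling (1.26) and with the median ratio of all genes set to 1 (1.252). With a 1.5-fold rule 1 member, SLC3A2, was called higher and none lower, where 0.842% and 1.90% of all genes were, and with a 2-fold rule none, where 0.212% and 0.299% were. Among genes with a mean of at least 5 cRPKM the counts were 4 and 1, where 3.15% and 3.75% of genes were called, and without a filter 4 and 3, where 1.99% and 3.89% were.

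MSI1 was also set directly against SRRM3 and SRRM4, which leaves out the empty vector. Against SRRM3, 17 of the 33 members were called higher and 2 lower, where 8.04% and 8.60% of all genes tested were called. Against SRRM4, 15 were called higher and 1 lower, where 9.69% and 6.34% were called. ATF4 was at 1.56 (1.54 to 1.59) of SRRM3 and 1.47 (1.45 to 1.496) of SRRM4. CHAC1 was at 2.14 (1.87 to 2.45) and 2.13 (1.86 to 2.44), and SLC7A11 at 2.19 (1.99 to 2.42) and 2.34 (2.11 to 2.59). PSPH, at 1.251 of SRRM3, lost its call with TMM scaling (1.233) and with the median ratio set to 1 (1.235), and VEGFA, at 1.28 of SRRM4, lost it with TMM scaling (1.249). These comparisons share the MSI1 library with the first one.

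Summed over all 38 members the level was 1297 cRPKM in the control, 1572 in MSI1, 1224 in SRRM3 and 1306 in SRRM4. Without ATF4 the sums were 1059, 1205, 989 and 1058 cRPKM, so the order of the highest and lowest library was the same. The synthesis members summed to 475.0, 535, 460 and 467 cRPKM and the transporters to 284, 305, 251 and 302. The stress signalling members without ATF4 summed to 300.0, 365, 279 and 289 cRPKM.

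Upstream of ATF4 stand the eIF2 kinases and their substrate. Of 18 genes for the eIF2 kinases, eIF2, its exchange factor eIF2B and their regulators, 1 was called higher in MSI1 (EIF2B2, 1.30) and 1 lower (EIF2B3, 0.783), with a median log2 ratio of 0.0018; of all genes 8.0% and 4.98% were called. The kinase EIF2AK3 (PERK) was at 9.68 cRPKM in the control and 10.87 in MSI1, and EIF2AK4 (GCN2), the amino acid sensor, at 19.80 and 19.01. In SRRM3, EIF2S2, the beta subunit of eIF2, was at 0.755 (0.737 to 0.773) of the empty vector. IMPACT, an inhibitor of GCN2, was at 16.05, 16.88, 12.63 and 10.12 cRPKM, with ratios of 0.787 (0.750 to 0.826) in SRRM3 and 0.631 (0.598 to 0.665) in SRRM4.

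Many aminoacyl-tRNA synthetases are known ATF4 targets. Of 20 listed 19 passed the filter, and none was called in MSI1 or SRRM4 against the empty vector (shares of all genes: 8.0% higher and 4.98% lower in MSI1, 2.96% and 3.07% in SRRM4); MARS1, the other one, is listed at 0 in all libraries. In MSI1 their median log2 ratio was -0.059, with AARS1, the alanyl-tRNA synthetase, highest at 1.21. In SRRM3 IARS1 and TARS1 were called lower, at 0.769 and 0.794, where 3.86% of all genes were. There 15 of the 19 had a ratio below 1, with a median log2 ratio of -0.14, beside 26 of the 33 members with a median of -0.080. Of all 12706 genes tested 6273 had a ratio below 1 in SRRM3. Of 11 tested genes on a separate list of further ATF4 targets, 4 were called higher in MSI1 and none lower, where 8.0% and 4.98% of all genes were: the glycine transporter SLC6A9 at 1.55 (1.37 to 1.76), the autophagy receptor SQSTM1 at 1.43 (1.40 to 1.47), the autophagosome protein MAP1LC3B at 1.35 (1.30 to 1.40) and the mitochondrial protease LONP1 at 1.26 (1.23 to 1.29). Their median log2 ratio was 0.26.

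The other arms of the unfolded protein response run through ATF6 and XBP1. Of 14 genes 2 were called higher in MSI1 and none lower, where 8.0% and 4.98% of all genes were. HERPUD1, a degradation factor of the endoplasmic reticulum that ATF4 also activates, was at 15.16, 26.89, 16.53 and 15.68 cRPKM, with a ratio of 1.77 (1.69 to 1.86). DNAJB9, a cochaperone, was at 1.37 (1.27 to 1.47). The chaperones HSPA5 (BiP) and HSP90B1 (GRP94), main products of these arms, were at 0.991 and 0.834 of the empty vector and were not called; the median log2 ratio of the list was 0.026. None of the 14 was called in SRRM3 or SRRM4 against the empty vector. Of all genes 6.86% were called higher and 3.86% lower in SRRM3, and 2.96% and 3.07% in SRRM4.

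SLC7A11 is also a target of NRF2, the regulator of the antioxidant response. Of 9 tested NRF2 targets it was the 1 called higher in MSI1, and NQO1, the quinone reductase, was called lower at 0.791 (0.702 to 0.890). Of all genes 8.0% and 4.98% were called. The ratio was above 1 for 6 of the 9 NRF2 targets, SLC7A11 included, and for 53.7% of all genes tested. The median log2 ratio of the NRF2 targets was 0.14. The p53 targets, among which GDF15 is often counted, were mixed by call in MSI1. Of 15 tested 3 were called higher and 3 lower, where 8.0% and 4.98% of all genes were. The ratio was below 1 for 10 of the 15, and for 5877 of all 12706 genes tested. The median log2 ratio of the p53 targets was -0.138. Among the p53 targets called, BBC3 (PUMA) was at 1.41 (1.27 to 1.56) and GADD45A at 1.32 (1.251 to 1.40). TP53I3 was at 0.732 (0.669 to 0.8004) and FDXR at 0.779 (0.736 to 0.823). In SRRM4 5 of the 15 were called lower and none higher, where 3.07% and 2.96% of all genes were, TP53I3 at 0.684 (0.624 to 0.751) among them. HEK293 carries adenoviral genes whose products restrain p53.

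Mitochondrially encoded mRNAs, which the filter kept in full, also differed between libraries. Their summed level was 10740 cRPKM in the control, 12850 in MSI1, 15970 in SRRM3 and 11210 in SRRM4. Of the 13, 4 were called higher in MSI1, where 8.0% of all genes were, and 11 in SRRM3, where 6.86% were. None was called lower in MSI1, where 4.98% of all genes were, or in SRRM3, where 3.86% were. Its part in the members' values was not tested.

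**Figure D4:**
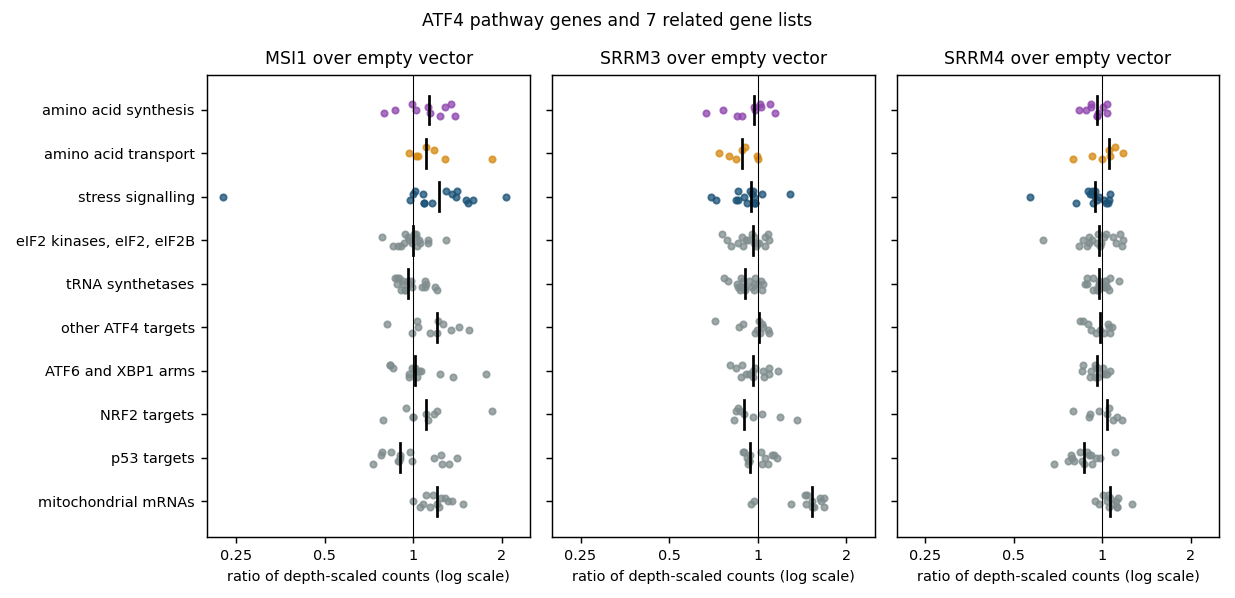
Ratio of depth-scaled counts to the empty vector (x axis, log scale) for the genes that passed the filter in the 3 role groups of ATF4 pathway genes (coloured) and 7 related lists (grey); each point is a gene and each black bar the median of its list. In MSI1 the stress signalling members (median 1.22) and other ATF4 targets (1.21) lie to the right of 1 and the tRNA synthetases (0.960) to the left; SLC7A11 stands in the transport group and among the NRF2 targets.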

How the data were processed

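Per the labels' protocols, polyA-selected stranded RNA-seq libraries were made from 4 doxycycline-induced HEK293 lines, 1 per group. For each gene the authors deposited a cRPKM value (corrected RPKM, 2 decimals) and a read count in whole numbers. Per the submitters' processing notes, the build is hg38 (GRCh38); the sources used here give no aligner, counting program, annotation release or strand setting. In 6305 well-covered genes, counts divided by cRPKM scaled with library totals to within 0.0935%.

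The files list 41614 genes, 1426 without any value; 39633 of the rest matched a symbol. Coordinates are from GENCODE 29 on GRCh38. Ratios are of counts scaled by library total, with exact conditional (Clopper-Pearson) 95% intervals. A call needs a ratio of at most 0.8 or at least its reciprocal and an interval excluding 1, and genes with mean cRPKM under 1 were left out. List medians use log2 of cRPKM + 0.5, which understates differences of low genes. Reads are not independent molecules, so intervals cover counting error only. Groups came from the genotype labels.

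The members and the 11 other gene lists were chosen with earlier results of these data known. All 38 members are described. From the other lists the text names some of the called members, at most 4 per list and comparison and not always those with the largest ratios. Called genes left out above include the HEK293 marker INA. Its ratios to the empty vector were 1.605 in MSI1, 2.095 in SRRM3 and 1.745 in SRRM4. It also gives levels or ratios of a few further members chosen for their role, after values were seen. Promoter stretches shown, up to 8, are those with a match before the start, in order of mean cRPKM. Liver markers reached a summed level of at most 0.15 cRPKM. Calls were tested on counts simulated with Poisson counting error only. Variation between libraries or lines was not simulated, so that test does not bear on it. Alternatives were folds of 1.5 and 2, TMM factors from edgeR, centring on the median ratio, no filter, a mean cRPKM of at least 5, pseudocounts of 0.1 and 2, the mean, and other control libraries. Software was edgeR 4.0.16 in R 4.3.3, and scipy 1.17.1, matplotlib 3.10.9, pandas 2.3.3 and numpy 2.4.6 in Python 3.11.15.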

Additional observations from a re-analysis of the deposited data

Results flagged for a closer look

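In 3 members one induced library was above the control and another below it, each past the rule for a call. ATF3 was at a ratio of 1.60 in MSI1 and 0.724 in SRRM3. SLC7A11 was at 1.85 in MSI1 and 0.793 in SRRM4. ALDH1L2, below the filter on low values and overlapping C12orf45, was at 1.38 in MSI1 and 1.345 in SRRM3 against 0.656 in SRRM4. These differences were not tested, since each group has 1 library, and the ratios share the empty-vector library.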

How the results depend on the processing

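No paired analysis was possible because each group has 1 library. In the 3 comparisons with the empty vector and in SRRM4 over SRRM3, scaling with TMM factors or by the median ratio ended no member's call, and PPP1R15A gained one in SRRM4 over SRRM3. In the direct comparisons of MSI1, where scaling was tried after seeing the data, PSPH lost its call over SRRM3 (16 called higher in place of 17, with either scaling) and VEGFA over SRRM4 with TMM factors (14 in place of 15). With TMM factors 4 ratios of MSI1 to the empty vector left their counting interval, at 1.503 for ATF4, 1.079 for SLC1A5, 1.016 for SLC38A2 and 0.955 for XPOT. The median of all genes tested shifted by at most 0.036 on the log2 scale between scalings.

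The number of calls depends on the fold. For MSI1 over the empty vector, with 13 higher and 2 lower, a 1.5-fold rule left 5 and 1 and a 2-fold rule 1 and 1. A mean of at least 5 cRPKM left 1 lower, and SRRM4 as control 1 lower. The members' median log2 ratio was 0.19, and 0.32 with SRRM3 as control. For SRRM3 over the empty vector, with 1 higher and 6 lower, both the 1.5-fold and the 2-fold rule left 0 and 0. Without the filter 2 were higher. With MSI1 as control 2 were higher and 17 lower, with a median of -0.32 in place of -0.080. That is MSI1 over SRRM3, given above, turned round and not a further result. For SRRM4 over the empty vector, with 0 higher and 2 lower, the 1.5-fold rule left 1 lower and the 2-fold rule 0. No filter gave 4 lower and a mean of at least 5 cRPKM 0. With MSI1 as control 1 was higher and 15 lower, with a median of -0.22 in place of -0.061, which is MSI1 over SRRM4 turned round. For SRRM4 over SRRM3, with 4 higher and 1 lower, the 1.5-fold rule left 1 and 0 and the 2-fold rule 0 and 0, and no filter gave 3 lower. Fewer calls at higher folds and more without the filter follow from the rules; for the control library the cause was not tested.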

Other observations

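Some further ATF4 pathway genes lay below the filter and enter no count above. ADM2, which encodes the peptide adrenomedullin 2, had 0.69 cRPKM in the control, 1.89 in MSI1, 0.70 in SRRM3 and 0.60 in SRRM4, a ratio of 2.73 in MSI1 (2.29 to 3.27). INHBE, an inhibin subunit, had 0.53, 0.40, 0.33 and 0.29 cRPKM in the same order, and its ratios were 0.752 (0.525 to 1.07) in MSI1, 0.623 (0.425 to 0.907) in SRRM3 and 0.542 (0.360 to 0.805) in SRRM4. Both are from the list of further ATF4 targets and were chosen after their values were seen.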
